A study of Homo sapiens with 11 samples.

Results

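The first step in the formation of engineered myometrial microtissues, day 3 against day 1, was followed in 7 of the 11 RNA-seq libraries of the series, 4 from day 3 and 3 from day 1, which were chosen by the day in the sample titles. Both groups were hTERT-HM cells, a human uterine smooth muscle line immortalised with telomerase, labelled as wild type, and the labels named no treatment other than the day of culture. The tissues are meant for measuring how the muscle contracts when oxytocin is given. Each day was thus a single immortalised line rather than uterine tissue, with no other cell type in the labels. Whether the replicates of a day were grown as separate cultures was not stated, and p-values thus cover only the spread between these libraries, which may be technical. The 4 libraries of day 6 were not compared. They took part in the choice of genes tested, in the scaling between libraries and in the shared estimate of that spread.

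Myometrial cells are smooth muscle cells that contract through actin and myosin, respond to oxytocin, prostaglandins and calcium, and are coupled by gap junctions. Cells in a three-dimensional tissue also deposit matrix and exchange growth factors and cytokines. Genes of these and other processes are described below by role, with levels in CPM. These are counts of a gene relative to the library's total multiplied by its TMM factor, which scales between libraries. They are not corrected for transcript length. The factors were 0.929 to 0.956 on day 3 and 0.963 to 1.01 on day 1. Day 3 levels are thus higher relative to day 1 than with library totals alone. Values of the 4 day 3 libraries and then of the 3 day 1 libraries are given in the order of their replicate numbers.

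Library totals lay between 28071813 and 33021509 counts. Pairs of libraries from different days were 0.410 to 0.484 apart in root mean square log2 difference, against 0.339 to 0.388 within day 3 and 0.341 to 0.380 within day 1. The first principal component of the 7 libraries held 36.5% of the variance and separated the days. The second held 15.1% and set day 3 replicate 2 (score -28.7) against day 3 replicate 4 (score 21.1), with the day 1 libraries between them. In bulk RNA, fewer cells of a kind and less RNA per cell cannot be told apart.

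Of 18245 genes tested, 2332 (12.8%) were called at a Benjamini-Hochberg adjusted p under 0.05 by edgeR's quasi-likelihood test. On day 3, 1255 genes (6.88%) were higher and 1077 (5.9%) were lower. The step was broad and shallow. Of the called genes, 977 of the higher and 759 of the lower ones changed by less than 1.5-fold, and the median fold was 1.26 for higher and 1.33 for lower genes. At least 2-fold changes were called for 108 higher genes (0.592%) and 128 lower genes (0.702%), and at least 4-fold changes for 5 higher and 10 lower genes. All 4 day 3 libraries lay above all 3 day 1 libraries for 2764 genes (15.1%) and below them for 2348 genes (12.9%). Such a separation held for 1244 of the 1255 genes called higher and 1032 of the 1077 called lower, so it adds little to a call. The split depended on scaling, since library totals without TMM factors gave 840 higher and 1630 lower genes. Leaving out day 1 replicate 1 gave 1344 calls in all, and leaving out day 1 replicate 2 gave 1352.

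**Figure D1:**
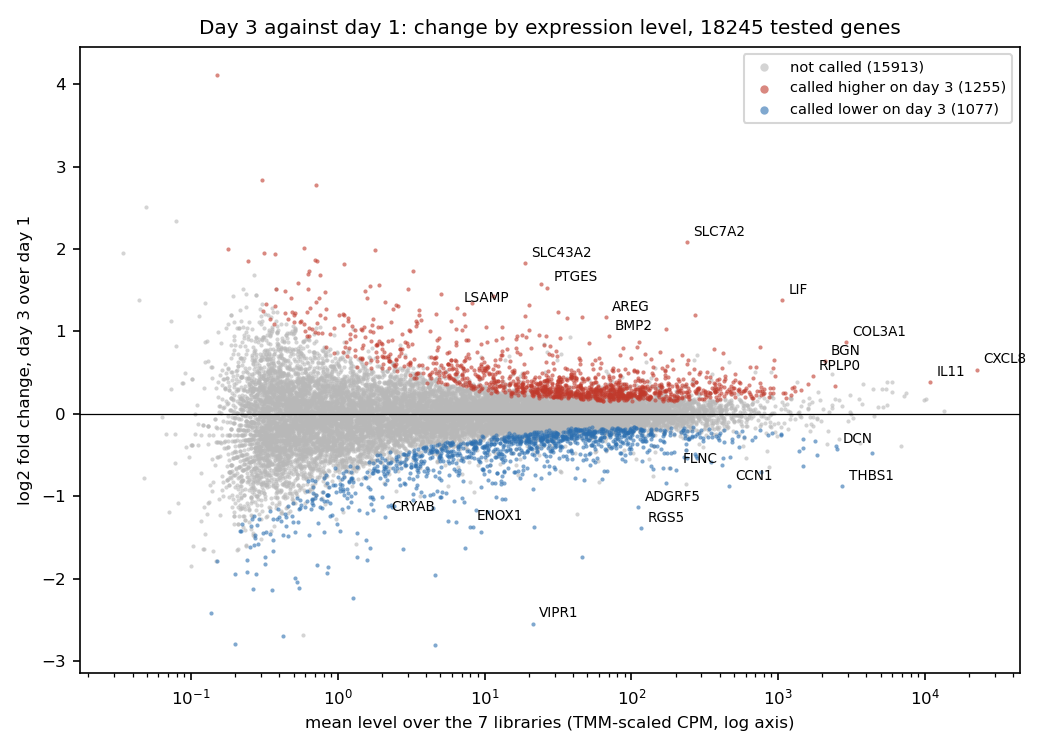
Log2 fold change of day 3 over day 1 (vertical axis) against mean level in TMM-scaled CPM over the 7 libraries (horizontal log axis) for the 18245 tested genes, 1 point each. The 1255 genes called higher and 1077 called lower on day 3 lie mostly within 1.5-fold of no change, with SLC7A2 and VIPR1 among the largest changes of well expressed genes.

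Higher calls were commoner among well expressed genes. In the class with a mean of 100 to 1000 CPM, 15.3% of 1923 genes were higher and 6.92% were lower, and above 1000 CPM the shares were 15.5% and 11.7% of 103 genes. Between 1 and 10 CPM they were 4.87% and 6.3% of 4985 genes, and below 1 CPM 1.22% and 2.26% of 4330 genes. The median standard error of the log2 change was 0.06 in the 100 to 1000 CPM class and 0.36 below 1 CPM. Protein-coding genes were called higher in 8.73% and lower in 6.76% of 13275 cases. For lncRNA genes, which are long transcripts with no known protein, the shares were 2.19% and 3.89% of 3288 genes, and for pseudogenes 1.35% and 2.95% of 1559 genes. The median standard error was 0.29 for lncRNA genes and 0.25 for pseudogenes, beside 0.09 for protein-coding genes. Fewer calls in these classes thus need not mean smaller changes.

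Transcript length and gene family gave further differences, in classes added after the data were seen. With protein-coding genes in 5 equal bins by transcript length, 13.1% of the bin with the longest transcripts (median 7765 bases) were higher and 5.85% lower, whereas 7.1% to 8.6% of the genes in the other bins were higher. Among 440 ZNF genes, which encode zinc finger proteins, 35 (7.95%) were higher and 9 (2.05%) lower. All protein-coding genes had 8.73% and 6.76%, so the ZNF share was near theirs for higher calls and smaller for lower calls. Of 237 SLC genes, which encode solute carriers of the membrane, 32 (13.5%) were higher and 19 (8.02%) lower.

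**Figure D2:**
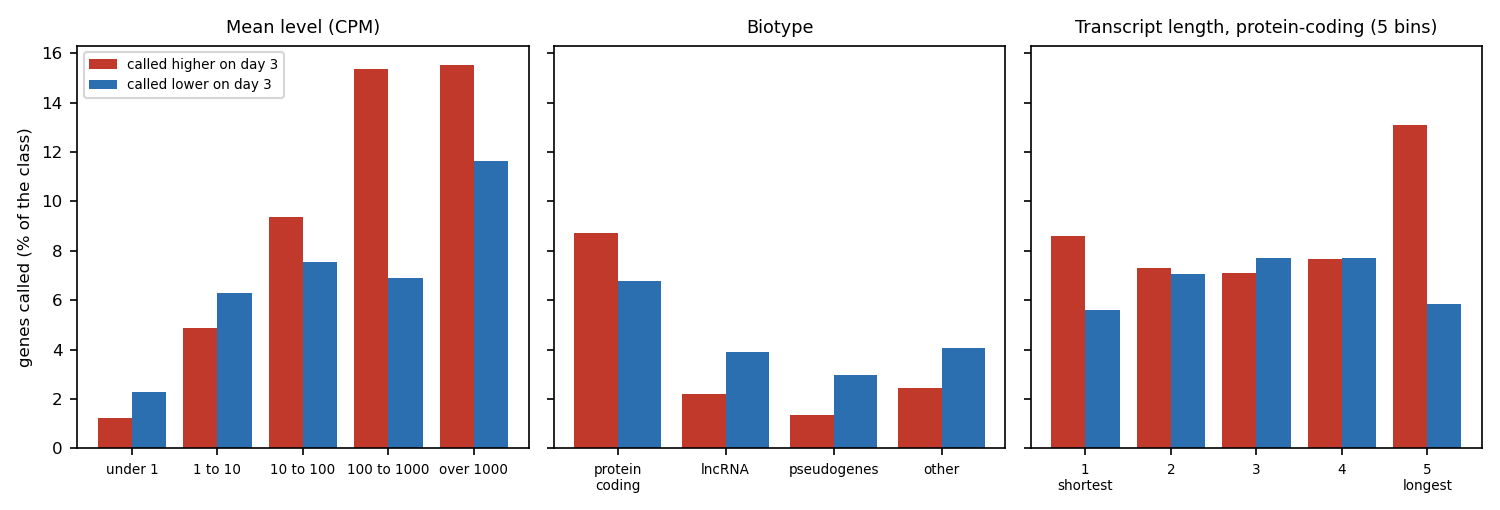
Share of genes called higher and called lower on day 3 (vertical axis, percent of the class) by mean level, biotype and bin of transcript length. Higher calls reach 15.3% and 15.5% in the classes above 100 CPM, and 13.1% in the bin with the longest transcripts.

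The largest rises with a mean of at least 5 CPM and no overlap between the days included amino acid transporters, a prostaglandin synthase and a cytokine. SLC43A2, a transporter of large neutral amino acids (chr17:1569268-1628886 on GRCh38), had 25.6, 33.3, 27.3 and 23.4 CPM in the day 3 libraries, against 7.13, 7.17 and 8.8 CPM in the day 1 libraries. The lowest day 3 library was well above the highest day 1 library, and the log2 fold change was 1.83 (SE 0.20, adjusted p = 2.60e-04). SLC7A2, which imports cationic amino acids, had 334, 382, 356 and 357 CPM in the day 3 libraries, against 92.6, 62.2 and 98.7 CPM in the day 1 libraries. Its log2 change of 2.08 was the largest in this group, with the day 3 libraries close to each other.

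PTGES, the synthase that makes prostaglandin E2, a mediator of uterine contraction and inflammation (chr9:129738331-129753042), had 35.6, 39.9, 33.1 and 39.3 CPM in the day 3 libraries, against 12.1, 9.89 and 16.4 CPM in the day 1 libraries. LIF, a cytokine of the interleukin 6 family (chr22:30240453-30246759), had 1438, 1647, 1389 and 1338 CPM in the day 3 libraries, against 493, 570.3 and 612 CPM in the day 1 libraries. The lowest day 3 library lay far above the highest day 1 library, the fold was 2.6, and the log2 change was 1.38 (SE 0.20, adjusted p = 0.00193). The other large rises were those of STX11, a vesicle fusion protein (log2 1.45), SCG2, a granule protein of secretory cells (1.42), RAMP1, a subunit of the calcitonin gene-related peptide receptor (1.34), LSAMP, a cell adhesion protein (1.29), SERPIND1, an inhibitor of thrombin (1.23), and BMP6, a bone morphogenetic protein (1.22). MMP10, a matrix metalloproteinase, and MGP, an inhibitor of calcification, completed the 12 with log2 changes of 1.57 and 1.32. MMP10 was not called without day 3 replicate 1 or 2 or day 1 replicate 1 (adjusted p = 0.0572 to 0.0687). MGP was not called without day 3 replicate 1 or 3 or day 1 replicate 1, 2 or 3 (adjusted p = 0.0525 to 0.085).

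The largest falls included receptors and a signalling regulator. VIPR1, a receptor for vasoactive intestinal peptide that raises cAMP and relaxes smooth muscle (chr3:42489299-42537573), had 6.95, 8.63, 6.22 and 5.86 CPM in the day 3 libraries, against 30.9, 58.7 and 31.5 CPM in the day 1 libraries. Day 1 replicate 2 was the highest, and the log2 change was -2.54 (SE 0.31, adjusted p = 0.00126). ADGRF5, an adhesion G protein-coupled receptor (chr6:46852522-46954943), had 69.6, 79.9, 70.7 and 75 CPM in the day 3 libraries, against 150.8, 176 and 157 CPM in the day 1 libraries. The libraries of each day were close together, and its adjusted p of 6.32e-07 (log2 -1.13) was the smallest of all genes and was shared by 3 of them, AREG included. RGS5, which shortens G protein signals in smooth muscle and pericytes, had 60.6, 71.8, 74.6 and 69.2 CPM in the day 3 libraries, against 178, 139 and 224 CPM in the day 1 libraries. Its log2 change of -1.38 was not called without day 1 replicate 1 or 3 (adjusted p = 0.0525 to 0.0587).

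Further falls were those of ENOX1, a cell surface oxidase (log2 -1.37), HEPHL1, a copper-dependent ferroxidase (-1.37), NPY, a neuropeptide (-1.30), and SAA1, an acute phase protein (-1.07), whose reads may be shared with its near-identical paralog SAA2. CPNE7, TECTB and PDZK1IP1 fell by 1.16, 1.37 and 1.19 on the log2 scale. IL36RN, an inhibitor of interleukin 36 receptors, had a log2 change of -1.43, which was not called without day 1 replicate 3 (adjusted p = 0.0517).

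**Figure D3:**
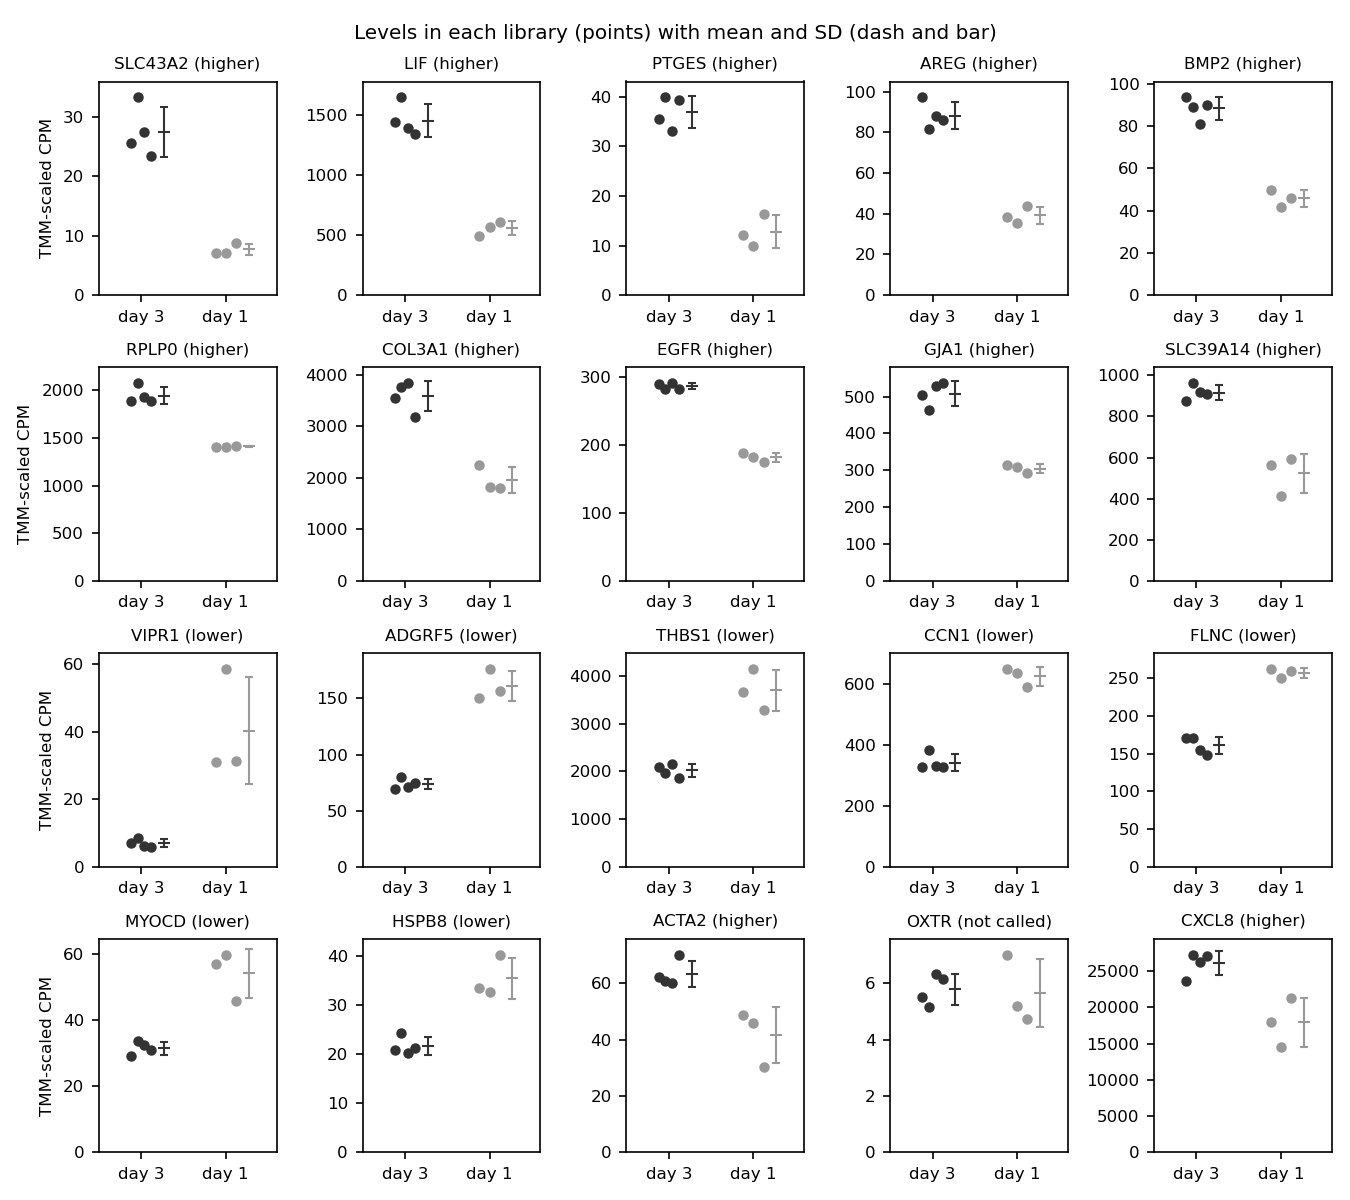
TMM-scaled CPM (vertical axes, each starting at 0) of 20 genes in the 4 day 3 libraries and the 3 day 1 libraries, 1 point per library, with the mean and SD beside them. The days do not overlap for any gene shown except OXTR, the oxytocin receptor gene, which alone was not called. Most called genes had no overlap, and some of those shown were chosen for having none.

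Cytosolic ribosomal protein genes, which encode the structural parts of the ribosome, moved together. Of 79 tested, 62 were higher and 0 lower, against 6.88% and 5.9% of all genes, and the median log2 change was 0.27 beside 0.00 for all genes. All 4 day 3 libraries lay above all day 1 libraries for 72 of the 79, beside 15.1% of all tested genes. RPLP0, a protein of the ribosomal stalk, had 1887, 2075, 1926 and 1888 CPM in the day 3 libraries, against 1407, 1406 and 1420.1 CPM in the day 1 libraries. RPL28, a protein of the large subunit, had 2712, 2789.9, 2649.9 and 2513 CPM in the day 3 libraries, against 2077, 2100.4 and 2153 CPM in the day 1 libraries, and its log2 change was 0.34 (SE 0.08, adjusted p = 0.00757). The group held 4.13% ± 0.101 of counts on day 3 and 3.52% ± 0.0928 on day 1 (SD, n = 4 and 3; two-sided exact permutation p = 0.0286, the lowest value that the 35 possible assignments can give; adjusted p = 0.0381 over 4 shares). The number of members called was 39 without day 1 replicate 1. Many of these genes have processed pseudogene copies in the genome that can share reads, and how the counting treated them is not given in the sources used here.

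Ribosomal protein messengers are known for a run of pyrimidines at their very start, through which their translation is coupled to growth signals. Such a run was printed for 3 members that the naming rule picked, 40 bases before to 20 after the annotated start in RefSeq (GRCh38.p14), with the run in capitals. RPLP0 lies at chr12:120201092-120201151, minus strand, RPL41 at chr12:56116593-56116652, plus strand and RPL28 at chr19:55385892-55385951, plus strand.
RPLP0: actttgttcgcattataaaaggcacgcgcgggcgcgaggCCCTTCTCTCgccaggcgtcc
RPL41: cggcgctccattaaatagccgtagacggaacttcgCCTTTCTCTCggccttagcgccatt
RPL28: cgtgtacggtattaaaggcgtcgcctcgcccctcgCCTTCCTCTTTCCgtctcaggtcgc
At least 8 pyrimidines in a row, on the gene strand, between 10 bases before and 20 after the start, were found in 79.4% of the 63 ribosomal protein genes with a promoter entry, beside 12.9% of 11840 tested genes. In all genes called higher the share was 14.4% of 984, and in those called lower 12.3% of 779. This motif was added after the ribosomal group had been seen.

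Other genes of protein synthesis and export were called in smaller numbers. The counts of lists here and below are to be read beside the 6.88% of all tested genes called higher and the 5.9% called lower. Where leaving out 1 library moved the count of a list by more than 1.5 times, the counts without that library stand in brackets after their direction. These brackets leave out the other alternatives, some of which moved counts further, as given in the section on processing. Of 44 translation factors 2 were higher and 0 lower (higher: 0 without day 1 replicate 1 and 1 without day 3 replicate 1, 3 or 4 or day 1 replicate 2). Of 53 ribosome biogenesis factors 2 were higher and 2 lower (higher: 0 without day 1 replicate 2 and 1 without day 3 replicate 1, 2, 3 or 4 or day 1 replicate 1 or 3; lower: 1 without day 3 replicate 1 or 3 or day 1 replicate 1, 2 or 3). Of 16 genes that host small nucleolar RNAs 4 were higher (higher: 2 without day 1 replicate 2), among them SNHG29 with a log2 change of 0.32 (SE 0.06, adjusted p = 0.00235). Among 20 cytosolic aminoacyl-tRNA synthetase genes 3 were lower and 0 higher (lower: 0 without day 3 replicate 2 or day 1 replicate 2 and 1 without day 3 replicate 1, 3 or 4 or day 1 replicate 1 or 3). In 45 genes of secretory transport 5 were higher and 0 lower (higher: 1 without day 1 replicate 1 or 2, 2 without day 3 replicate 2 or 3 and 3 without day 3 replicate 1 or 4), and SSR2, a subunit of the translocon-associated complex, had a log2 change of 0.32. Of 30 folding genes of the endoplasmic reticulum 6 were higher and 0 lower (higher: 2 without day 1 replicate 2 and 3 without day 1 replicate 1; lower: 1 without day 1 replicate 2). XBP1, a transcription factor of the unfolded protein response, and DNAJC3, a co-chaperone, rose by 0.39 and 0.36.

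Carriers of amino acids and zinc were higher in many cases. Of 26 amino acid transporter genes 9 were higher and 3 lower, with a median log2 change of only 0.04 (lower: 1 without day 1 replicate 1). Beside SLC7A2 and SLC43A2, SLC7A11, the cystine importer that feeds glutathione synthesis, had 39.8, 40.5, 43.4 and 41 CPM in the day 3 libraries, against 28.6, 25.5 and 29.9 CPM in the day 1 libraries. SLC1A3, a glutamate importer, fell (-0.47). Of 13 genes of metallothioneins and zinc transport 6 were higher and 1 lower, with a median log2 change of 0.38. SLC39A14, which carries zinc and iron into the cell, had 875, 962, 919.8 and 908 CPM in the day 3 libraries, against 562, 413 and 592 CPM in the day 1 libraries, and its log2 change was 0.81 (SE 0.12, adjusted p = 0.0011). SLC39A8, a related importer, rose by 0.71, and SLC39A10, a zinc importer, fell by 0.45 on the log2 scale.

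Several lists of inflammatory genes held more higher than lower calls. Of 34 cytokine and chemokine genes 12 were higher and 3 lower, with a median log2 change of 0.37. With single libraries removed, fewer were higher, namely 5 without day 1 replicate 1, 6 without day 1 replicate 2 and 7 without day 3 replicate 2. CCL20, a chemokine that attracts lymphocytes and dendritic cells, had 22.5, 20.4, 17.2 and 22.3 CPM in the day 3 libraries, against 10.51, 8.83 and 13.5 CPM in the day 1 libraries. CSF1, the growth factor of macrophages, moved the other way, with 53.3, 54.1, 48.2 and 49.6 CPM in the day 3 libraries, against 78.8, 89.4 and 81.1 CPM in the day 1 libraries. Its log2 change was -0.69 (SE 0.06, adjusted p = 3.32e-06), and the days did not overlap.

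CXCL8, a chemokine that attracts neutrophils, and IL11, a cytokine of the interleukin 6 family, gained more CPM than any other called gene. CXCL8 had 23689, 27295, 26265 and 27150.0 CPM in the day 3 libraries, against 17995, 14575 and 21348 CPM in the day 1 libraries. IL11 had 11853, 13163, 11553 and 11691 CPM in the day 3 libraries, against 8734, 8344 and 10576 CPM in the day 1 libraries. The days did not overlap for either gene, and the log2 changes were 0.54 (SE 0.15, adjusted p = 0.0291) and 0.39 (SE 0.11, adjusted p = 0.0219). Both calls were lost when certain single libraries were left out. CXCL8 was not called without day 3 replicate 2, 3 or 4 or day 1 replicate 1 or 2 (adjusted p = 0.0606 to 0.137), and IL11 was not called without day 3 replicate 1 or 2 or day 1 replicate 1 or 2 (adjusted p = 0.0507 to 0.133).

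Of 32 genes of the NF-kB transcription factors, their feedback inhibitors and targets, 14 were higher and 0 lower, with a median log2 change of 0.30 (higher: 9 without day 1 replicate 2). REL, an NF-kB subunit, had 18, 17.2, 19.97 and 18.4 CPM in the day 3 libraries, against 12.6, 12.2 and 13.4 CPM in the day 1 libraries. RIPK2, a kinase of innate immune signalling, rose by 0.46 (adjusted p = 6.70e-04). Of 47 interferon-stimulated and MHC class I genes 13 were higher and 0 lower (higher: 8 without day 3 replicate 2 or day 1 replicate 1), and 7 were higher when library totals replaced TMM factors. Their rises were small, such as 0.33 for TAP1, the peptide transporter of antigen presentation, and 0.34 for GBP2, a guanylate-binding protein. Of 30 genes of JAK and STAT signalling 5 were higher and 1 lower (higher: 3 without day 3 replicate 1, 2, 3 or 4 or day 1 replicate 1 or 2; lower: 0 without day 1 replicate 1), including STAT3, a transcription factor of the interleukin 6 family signal, with a log2 change of 0.36 (SE 0.06, adjusted p = 7.85e-04).

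Complement and acute phase genes split. Of 23 tested 4 were higher and 5 lower (higher: 2 without day 1 replicate 3). C3, the central complement protein, had 622, 607, 612 and 552 CPM in the day 3 libraries, against 1019.9, 863 and 1043 CPM in the day 1 libraries. SERPING1, the inhibitor of the first complement component, had 42.1, 39.1, 35.2 and 32.9 CPM in the day 3 libraries, against 22.9, 18.9 and 24.3 CPM in the day 1 libraries. The days did not overlap for either gene, and the log2 changes were -0.70 and 0.76.

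Promoters of 3 of these genes were printed because they held, within 250 bases before the start, the site of a factor of the same response. The capitals mark the AP-1 letters TGANTCA in CXCL8 (chr4:73740409-73740508, plus strand) and IL11 (chr19:55370504-55370603, minus strand), and the kappa B site of NF-kB in REL (chr2:60881484-60881563, plus strand), each searched on both strands.
CXCL8: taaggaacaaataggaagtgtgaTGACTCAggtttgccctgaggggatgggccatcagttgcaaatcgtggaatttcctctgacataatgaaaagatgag
IL11: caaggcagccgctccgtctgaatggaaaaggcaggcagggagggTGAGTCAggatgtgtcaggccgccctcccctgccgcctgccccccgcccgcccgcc
REL: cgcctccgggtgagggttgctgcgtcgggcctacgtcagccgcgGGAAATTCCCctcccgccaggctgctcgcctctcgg
The sites began 137, 96 and 46 bases before the start. The CXCL8 stretch also holds tggaatttcc, which differs from the kappa B letters only in its first base and was therefore not marked. Over the whole 300-base window the AP-1 letters were found in 25% of 24 cytokine and chemokine promoters, beside 5.06% of 11840. The kappa B site was found in 29.2% of these 24 and in 18.5% of 27 promoters of the NF-kB list, beside 0.608% of all. That list holds NF-kB targets by choice. Among all genes called, the AP-1 letters were found in 6.1% of 984 higher and 6.03% of 779 lower ones. For the kappa B site these shares were 0.711% and 0.513%. A match describes letters only and is not evidence of binding.

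Growth factor ligands and their receptors were counted separately. AREG, a ligand of the epidermal growth factor receptor (chr4:74445136-74455005), had 97.2, 81.8, 88.1 and 85.9 CPM in the day 3 libraries, against 38.6, 35.4 and 43.7 CPM in the day 1 libraries. The log2 change was 1.17 (SE 0.08, adjusted p = 6.32e-07). It was the only 1 of 32 receptor tyrosine kinase ligands called higher, while 3 were lower (lower: 1 without day 3 replicate 1 or 3 or day 1 replicate 2 or 3), among them GAS6 with a log2 change of -0.47. EGFR, the receptor of AREG (chr7:55019017-55211628), had 290.03, 282, 291 and 283 CPM in the day 3 libraries, against 189, 182 and 174 CPM in the day 1 libraries. The days did not overlap, and the log2 change was 0.66 (SE 0.10, adjusted p = 7.02e-04). Of 31 receptor tyrosine kinases 11 were higher and 1 lower, with a median log2 change of 0.28 (higher: 5 without day 1 replicate 2, 6 without day 1 replicate 1 and 7 without day 3 replicate 3 or 4). PDGFRB, a platelet-derived growth factor receptor, rose by 0.45. EPHA2, an ephrin receptor, was the 1 that fell (-0.48).

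BMP genes split. BMP2 (chr20:6767686-6780246) had 93.6, 88.8, 80.9 and 90.01 CPM in the day 3 libraries, against 49.96, 41.9 and 45.9 CPM in the day 1 libraries, and its log2 change was 0.94 (SE 0.08, adjusted p = 9.30e-07). GREM1, a secreted inhibitor of BMP ligands, had 1166, 1164, 1201 and 1264 CPM in the day 3 libraries, against 1875, 2023 and 1685 CPM in the day 1 libraries. Its log2 change was -0.63 (SE 0.08, adjusted p = 3.23e-05), and the days did not overlap. In the BMP list 7 of 24 were higher and 4 lower (lower: 2 without day 1 replicate 2), and the ligand BMP4 was among those that fell (-0.38). Of 31 genes of the TGF-beta and activin pathway 7 were higher and 2 lower (lower: 1 without day 3 replicate 1 or 4 or day 1 replicate 3). The higher ones included FST, which binds activin (log2 0.56), and TGFB3, a TGF-beta ligand (0.69). In the insulin-like growth factor axis 5 of 20 were higher and 3 lower (higher: 3 without day 1 replicate 1 or 2). PAPPA, the protease that frees this factor from its binding proteins, had 116, 148, 139 and 109.97 CPM in the day 3 libraries, against 231, 232 and 225 CPM in the day 1 libraries.

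Immediate early genes, which respond to stimulation within minutes to hours, were higher in 8 of 28 cases and lower in 1 (higher: 3 without day 1 replicate 2 and 5 without day 3 replicate 1 or 2 or day 1 replicate 1). KLF10 rose by 0.66 and KLF6 fell by 0.38 on the log2 scale. Of 22 genes of MAPK feedback 1 was higher and 1 lower. The first was DUSP1, a phosphatase that switches off MAP kinases, with 129, 126, 126 and 122 CPM in the day 3 libraries, against 88.5, 82.8 and 93.9 CPM in the day 1 libraries. CREB5, a factor of the cAMP response family, had 24.7, 24.7, 26 and 26.3 CPM in the day 3 libraries, against 13.2, 10.8 and 13.8 CPM in the day 1 libraries. Its log2 change was 1.02 (SE 0.10, adjusted p = 6.51e-06).

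AREG and DUSP1 were printed because their promoters held the full cAMP response element TGACGTCA, marked in capitals, 65 and 125 bases before the start (AREG at chr4:74445026-74445105, plus strand, DUSP1 at chr5:172771276-172771355, minus strand).
AREG: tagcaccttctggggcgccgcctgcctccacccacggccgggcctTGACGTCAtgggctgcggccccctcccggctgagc
DUSP1: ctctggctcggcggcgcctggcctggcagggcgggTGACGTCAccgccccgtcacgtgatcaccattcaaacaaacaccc
Over 300 bases and both strands these letters were found in 4.47% of 984 genes called higher, in 2.05% of 779 called lower and in 3.19% of all 11840.

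Among transcription factors of time and identity, CRY1, a repressor of the circadian clock, had 32.5, 33, 32.9 and 32.8 CPM in the day 3 libraries, against 18.5, 15.9 and 16.7 CPM in the day 1 libraries. The day 3 libraries were almost equal, and the log2 change was 0.94 (SE 0.08, adjusted p = 9.30e-07). In the clock list 4 of 19 were higher and 3 lower (lower: 1 without day 1 replicate 2), and NR1D2, a nuclear receptor of the clock, fell (-0.44). TWIST1, a factor of mesenchymal cells, had 144, 147, 135 and 134 CPM in the day 3 libraries, against 75.3, 67 and 86.8 CPM in the day 1 libraries, while its relative TWIST2 fell by 0.28 on the log2 scale. Of 42 mesenchymal transcription factors 7 were higher and 1 lower (higher: 3 without day 3 replicate 1 or 2 or day 1 replicate 1 or 2 and 4 without day 3 replicate 3 or 4 or day 1 replicate 3; lower: 2 without day 3 replicate 1). HOX genes were lower in 3 of 26 cases and higher in 0 (lower: 0 without day 1 replicate 3 and 1 without day 3 replicate 2 or 3 or day 1 replicate 2).

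**Figure D4:**
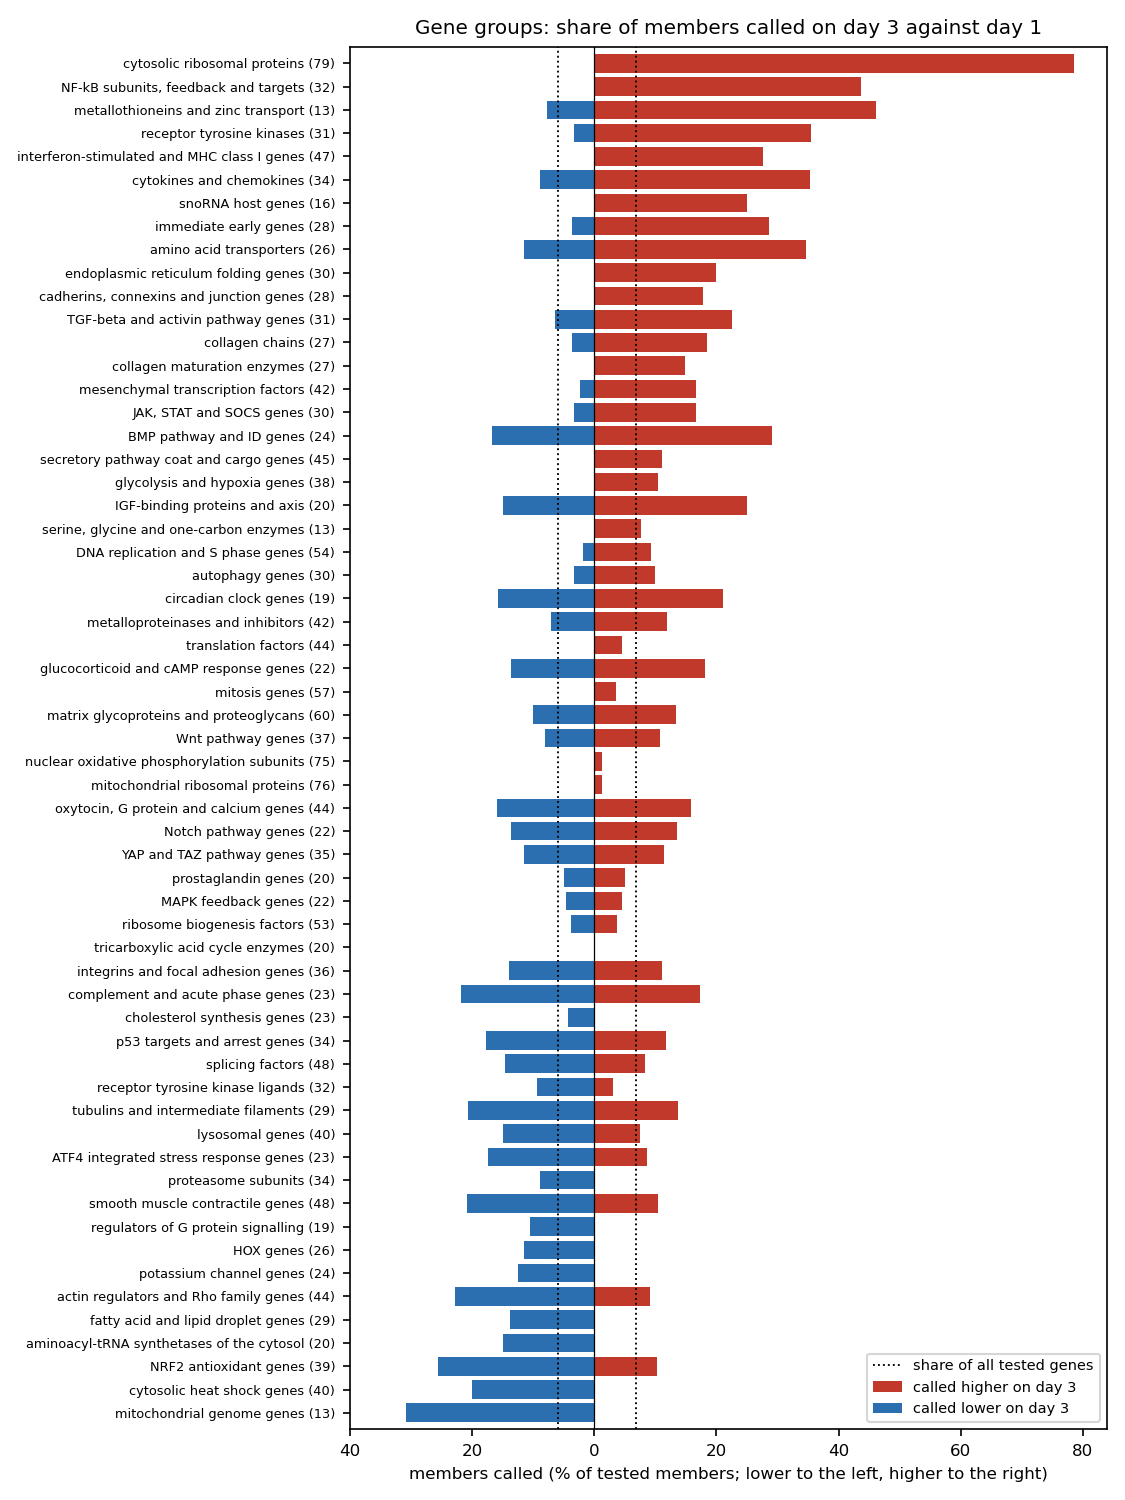
Share of tested members called higher (to the right) and lower (to the left) on day 3 for 59 gene groups, with the number tested in brackets; dotted lines mark the 6.88% and 5.9% of all tested genes. Cytosolic ribosomal proteins, NF-kB genes and metallothioneins stand at the top, and mitochondrial genome, heat shock and NRF2 genes at the bottom, ordered by the share higher minus the share lower.

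Matrix genes moved both ways. COL3A1, the chain of type III collagen of stretchable tissue (chr2:188974373-189012746), had 3547, 3755, 3839 and 3189.5 CPM in the day 3 libraries, against 2250.3, 1818 and 1803 CPM in the day 1 libraries. The log2 change was 0.87 (SE 0.10, adjusted p = 3.41e-05). Of 27 collagen chains 5 were higher and 1 lower (higher: 3 without day 3 replicate 1, 3 or 4 or day 1 replicate 1, 2 or 3; lower: 0 without day 3 replicate 1, 2 or 3 or day 1 replicate 1 or 2). BGN and LUM, small proteoglycans that bind collagen, rose by 0.64 and 0.68. LUM had 69.3, 73.5, 73.8 and 72.9 CPM in the day 3 libraries, against 44, 40.8 and 50.4 CPM in the day 1 libraries. DCN, of the same family, had 2081, 2261, 2162 and 2236 CPM in the day 3 libraries, against 2909, 2836 and 3066 CPM in the day 1 libraries, and its log2 change was -0.43 (SE 0.07, adjusted p = 7.05e-04). The days did not overlap for LUM or DCN, which moved in opposite directions.

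THBS1, a matricellular glycoprotein that activates TGF-beta (chr15:39581079-39599466), had 2095, 1978, 2159 and 1864 CPM in the day 3 libraries, against 3675, 4156 and 3289.5 CPM in the day 1 libraries. It lost more CPM than any other called gene, and the log2 change was -0.87 (SE 0.11, adjusted p = 8.55e-05). CCN1, a matricellular protein and target of the YAP factor, had 328, 382, 329 and 328 CPM in the day 3 libraries, against 649, 636 and 589.9 CPM in the day 1 libraries. In all, 8 of 60 matrix glycoproteins and proteoglycans were higher and 6 lower (higher: 5 without day 3 replicate 3 or day 1 replicate 2 or 3). PCOLCE, which aids the trimming of procollagen, rose by 0.51, and TIMP3, an inhibitor of metalloproteinases, fell by 0.45 on the log2 scale.

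Of 28 cadherin, connexin and junction genes 5 were higher and 0 lower (higher: 3 without day 1 replicate 2). GJA1, which encodes connexin 43, the main gap junction protein of the myometrium in labour (chr6:121435595-121449727), had 504, 463, 529 and 537 CPM in the day 3 libraries, against 314, 308 and 292 CPM in the day 1 libraries. The log2 change was 0.74 (SE 0.13, adjusted p = 0.00298). CDH13, a cadherin anchored to the membrane by a lipid, rose by 0.54 (adjusted p = 3.23e-05). Integrin and focal adhesion genes were mixed, with 4 of 36 higher and 5 lower (higher: 2 without day 3 replicate 3; lower: 3 without day 1 replicate 1). ITGA1, a collagen-binding integrin, rose by 0.51, and TNS2 and TGFB1I1, adaptor proteins of focal adhesions, fell by 0.42 and 0.35.

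More contractile and actin genes were lower than higher. Of 48 smooth muscle contractile genes 10 were lower and 5 higher, with a median log2 change of -0.09, -0.05 without day 1 replicate 1 and -0.15 with library totals (lower: 5 without day 1 replicate 1 or 2 and 6 without day 3 replicate 1 or 3; higher: 3 without day 3 replicate 2 or 4 or day 1 replicate 1 or 3). MYOCD, the coactivator that drives the contractile programme (chr17:12665890-12768949), had 29.1, 33.8, 32.5 and 30.9 CPM in the day 3 libraries, against 57.1, 59.95 and 45.9 CPM in the day 1 libraries. FLNC, an actin crosslinker of muscle, had 169.97, 170.1, 154 and 149 CPM in the day 3 libraries, against 262, 249.6 and 259 CPM in the day 1 libraries, and its log2 change was -0.68 (SE 0.06, adjusted p = 2.29e-06). ACTA2, smooth muscle alpha actin and a defining marker, moved the other way, with 62.4, 60.8, 60.04 and 70.2 CPM in the day 3 libraries, against 48.7, 45.8 and 30.4 CPM in the day 1 libraries. Day 1 replicate 3 was lowest. The log2 change of 0.61 (SE 0.14, adjusted p = 0.0142) was not called in a fit of only the 2 days (adjusted p = 0.0609). MYH10, a nonmuscle myosin, rose by 0.46.

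Of 44 actin regulators 10 were lower and 4 higher (lower: 5 without day 1 replicate 1 and 6 without day 3 replicate 2 or 3). ACTB, the cytoplasmic actin often used as a reference gene, had 2171, 2204, 2054 and 2267 CPM in the day 3 libraries, against 2943, 3114 and 2468 CPM in the day 1 libraries. Its log2 change was -0.39 (SE 0.08, adjusted p = 0.00485). ACTB has near-identical paralogs and pseudogenes, so its counts may be shared. MAP1A, a microtubule protein, fell by 0.52 on the log2 scale, and KRT8, a keratin, rose by 0.42.

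The oxytocin receptor gene itself was low and not called, with 5.52, 5.14, 6.33 and 6.15 CPM in the day 3 libraries, against 7.01, 5.18 and 4.74 CPM in the day 1 libraries. Its log2 change was 0.03 (SE 0.16, adjusted p = 0.918), and the days overlapped. Among 44 genes of oxytocin, G protein and calcium signalling 7 were higher and 7 lower (higher: 2 without day 3 replicate 3 or day 1 replicate 1, 3 without day 1 replicate 2 and 4 without day 3 replicate 4 or day 1 replicate 3). JPH2, which ties the calcium store to the plasma membrane, had 8.65, 10.4, 9.14 and 10.02 CPM in the day 3 libraries, against 20.4, 21.7 and 16.5 CPM in the day 1 libraries, and PLCB4, a phospholipase downstream of Gq, fell by 0.42 on the log2 scale. ITPR2, a calcium release channel, rose by 0.47. Among 19 regulators of G protein signalling 2 were lower, RGS5 and GRK5 (-0.55), and 0 were higher (lower: 1 without day 1 replicate 1 or 3; higher: 1 without day 3 replicate 3 or day 1 replicate 2). Of 24 potassium channel genes 3 were lower and 0 higher, including KCNAB2, a channel beta subunit, with 33.1, 35.2, 32.6 and 31.4 CPM in the day 3 libraries, against 46.3, 48 and 50.3 CPM in the day 1 libraries. The number of channel genes lower was 5 without day 1 replicate 3. TBXAS1, which makes thromboxane, fell (-0.99) and with PTGES was the only called gene of 20 in prostaglandin metabolism (lower: 2 without day 1 replicate 3).

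Chaperone and antioxidant genes held more lower than higher calls. Of 40 cytosolic heat shock genes 8 were lower and 0 higher, with a median log2 change of -0.11 (-0.17 with library totals). The number lower was 7 or 8 with any 1 library left out and 7 to 15 over all alternatives. The number higher was 0 to 1 over all alternatives. HSPB8, a small heat shock protein of muscle (chr12:119171555-119224855), had 21, 24.4, 20.2 and 21.2 CPM in the day 3 libraries, against 33.6, 32.8 and 40.4 CPM in the day 1 libraries. CRYAB, another small heat shock protein, was near 1 CPM on day 3, with 1.34, 1.34, 1.2 and 1.36 CPM in the day 3 libraries, against 3.23, 3.55 and 2.57 CPM in the day 1 libraries. Their log2 changes were -0.71 (SE 0.09, adjusted p = 8.00e-05) and -1.25 (SE 0.18, adjusted p = 2.27e-04).

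The promoters of HSPB8 (chr12:119178801-119178880, plus strand) and CHORDC1 (chr11:90223070-90223149, minus strand), a cochaperone that fell by 0.49 on the log2 scale and was picked after its values were seen, were printed to show the core of the heat shock element, GAANNTTC, in capitals.
HSPB8: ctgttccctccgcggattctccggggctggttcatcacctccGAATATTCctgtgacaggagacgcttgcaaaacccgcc
CHORDC1: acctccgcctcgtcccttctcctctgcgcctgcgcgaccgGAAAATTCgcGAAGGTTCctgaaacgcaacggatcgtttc
The core began 88 bases before the start of HSPB8, and CHORDC1 held 2 cores, 60 and 50 bases before its start. Over 300 bases it was present in 33.3% of 36 heat shock promoters and in 4.82% of all 11840. In genes called lower as a whole the share was 4.49% of 779, and in those called higher 5.39% of 984. Among genes called with at least 2-fold changes it was 6.35% of 63 lower and 12.1% of 66 higher ones.

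Of 39 genes of the NRF2 antioxidant response 10 were lower and 4 higher (higher: 2 without day 1 replicate 1 or 2). ABCC3, an export pump for conjugated compounds, had 158, 148, 136 and 145 CPM in the day 3 libraries, against 212, 243 and 238 CPM in the day 1 libraries, and its log2 change was -0.65 (SE 0.06, adjusted p = 4.50e-06). TXN, thioredoxin, fell by 0.43 on the log2 scale. SLC7A11 and HMOX1, which breaks down haem, went against the group (0.44 for HMOX1). Lysosomal genes were lower in 6 of 40 cases and higher in 3 (lower: 3 without day 1 replicate 2; higher: 1 without day 1 replicate 1 or 3), with LIPA, the acid lipase, at 29.8, 30.7, 30.4 and 29.98 CPM in the day 3 libraries, against 44, 45.9 and 38.9 CPM in the day 1 libraries. Of 34 p53 targets and genes of cell cycle arrest 6 were lower and 4 higher (lower: 3 without day 1 replicate 1). PHLDA3, a target of p53, fell by 0.51 on the log2 scale, and CDKN2B, an inhibitor of the G1 phase kinases, rose by 0.46.

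**Figure D5:**
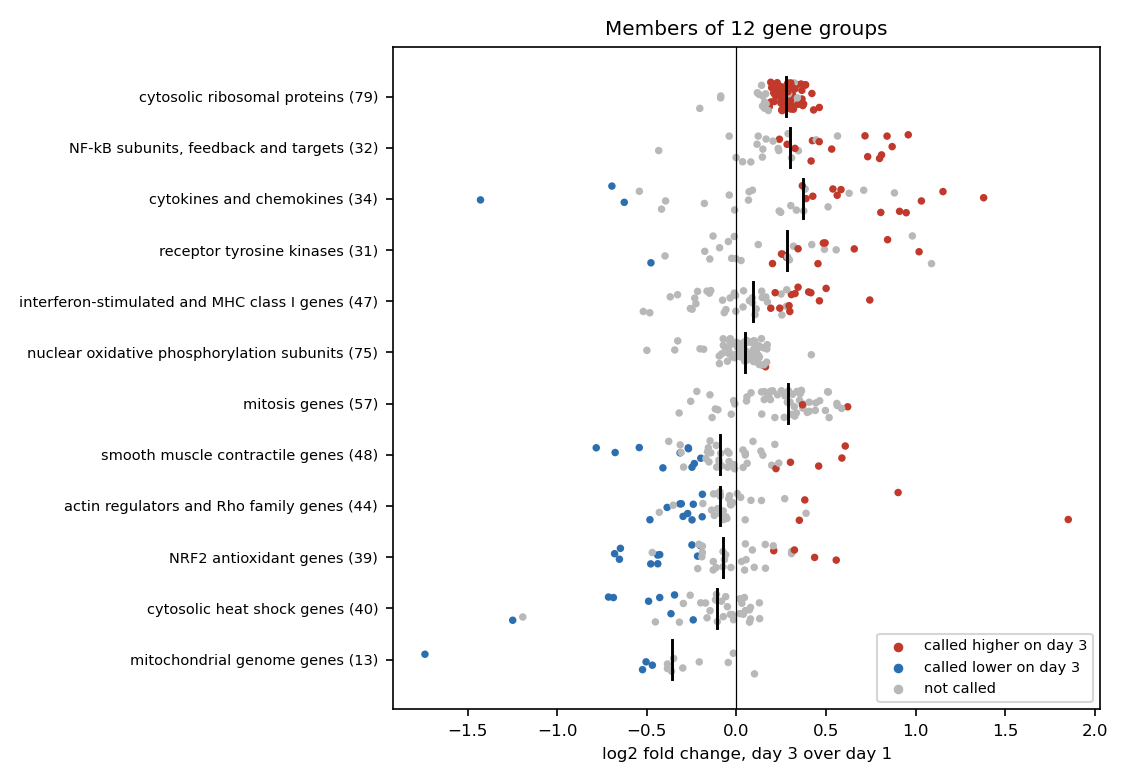
Log2 fold change of day 3 over day 1 (horizontal axis) for every tested member of 12 gene groups, 1 point per gene, with the group median as a bar. Ribosomal protein genes have a median of 0.27 and mitochondrial genome genes one of -0.36.

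Transcripts of the mitochondrial genome took a smaller share of counts, 2.49% ± 0.202 on day 3 and 3.24% ± 0.244 on day 1 (SD, n = 4 and 3; exact permutation p = 0.0286, the smallest possible; adjusted p = 0.0381). Of its 13 genes 4 were lower and 0 higher, with a median log2 change of -0.36. MT-ATP6, a subunit of ATP synthase, had 1492, 1642, 1604 and 1462 CPM in the day 3 libraries, against 2226, 1924 and 2444 CPM in the day 1 libraries. MT-ATP8, which overlaps MT-ATP6 so that reads can be credited to either, had 23, 16.2, 29.8 and 22.8 CPM in the day 3 libraries, against 75.5, 51.4 and 103 CPM in the day 1 libraries. Few nuclear partners were called. Of 75 nuclear oxidative phosphorylation genes 1 was higher and 0 lower (higher: 0 without day 3 replicate 1, 2 or 3 or day 1 replicate 1, 2 or 3; lower: 2 without day 3 replicate 4). Of 76 mitochondrial ribosomal proteins 1 was higher and 0 lower (higher: 0 without day 3 replicate 1 or 3 or day 1 replicate 1 or 2; lower: 1 without day 3 replicate 3). Of 20 enzymes of the tricarboxylic acid cycle edgeR called 0 either way and DESeq2 likewise 0, and 2 had an unadjusted p under 0.05.

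The remaining groups are given by their counts, beside 6.88% higher and 5.9% lower of all tested genes. Some shares lay near these, such as 7.69% of one-carbon enzymes higher, or 10.8% of Wnt genes higher and 8.11% lower. Of 23 genes of the ATF4 stress response 2 were higher and 4 lower (higher: 1 without day 3 replicate 2 or day 1 replicate 2; lower: 1 without day 1 replicate 1 and 2 without day 3 replicate 1 or 4 or day 1 replicate 3). Of 34 proteasome subunits 3 were lower and 0 higher (lower: 0 without day 1 replicate 3), and of 30 autophagy genes 3 were higher and 1 lower. Of 27 collagen maturation enzymes 4 were higher and 0 lower (higher: 2 without day 3 replicate 2 or 3 or day 1 replicate 2 or 3; lower: 1 without day 3 replicate 2 or day 1 replicate 3). Of 42 metalloproteinases and inhibitors 5 were higher and 3 lower (higher: 3 without day 3 replicate 1 or 2; lower: 1 without day 3 replicate 1, 3 or 4 or day 1 replicate 1). Of 35 YAP and TAZ genes 4 were higher and 4 lower (lower: 2 without day 1 replicate 1). Of 37 Wnt genes 4 were higher and 3 lower (higher: 1 without day 1 replicate 3 and 2 without day 3 replicate 2 or day 1 replicate 1; lower: 1 without day 3 replicate 1 or 2 or day 1 replicate 1 or 2). Of 22 Notch genes 3 were higher and 3 lower (higher: 1 without day 3 replicate 2, 3 or 4 or day 1 replicate 1 or 2; lower: 1 without day 3 replicate 2 or 4). Of 22 glucocorticoid and cAMP response genes 4 were higher and 3 lower (lower: 1 without day 3 replicate 4 or day 1 replicate 1 or 3). Of 29 tubulins and intermediate filaments 4 were higher and 6 lower (higher: 1 without day 3 replicate 2 or 4 and 2 without day 3 replicate 1 or day 1 replicate 1 or 2; lower: 3 without day 3 replicate 3 or day 1 replicate 1, 2 or 3). Of 13 one-carbon enzymes 1 was higher and 0 lower.

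Of 29 fatty acid and lipid droplet genes 4 were lower and 0 higher (higher: 2 without day 1 replicate 3), and of 23 cholesterol synthesis genes 1 was lower (lower: 2 without day 3 replicate 3). SCD, the stearoyl-CoA desaturase, had 214, 247, 226 and 248 CPM in the day 3 libraries, against 356, 315 and 341 CPM in the day 1 libraries. INSIG1, a sterol-sensitive regulator, had 182, 221, 195 and 209.6 CPM in the day 3 libraries, against 297, 278 and 304 CPM in the day 1 libraries. Both had log2 changes of -0.53 with no overlap. Of 38 glycolysis and hypoxia genes 4 were higher and 0 lower (higher: 1 without day 1 replicate 1 or 2 and 2 without day 3 replicate 1 or 4; lower: 1 without day 1 replicate 1), and PGAM1, a glycolytic mutase, rose by 0.27.

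Cell division genes were counted in a mitosis list and a replication list. The median log2 change of 57 mitosis genes was 0.29, and 0.11 without day 1 replicate 3. All day 3 libraries lay above all day 1 libraries for 7 of the 57, beside 15.1% of all genes. In edgeR's test 2 were called higher and 0 lower (higher: 1 without day 3 replicate 2 or day 1 replicate 2 or 3), among them UBE2S, a ubiquitin-conjugating enzyme of mitotic exit, with a log2 change of 0.37 (SE 0.07, adjusted p = 0.00214). Of 54 DNA replication genes 5 were higher and 1 lower (higher: 1 without day 1 replicate 3 and 3 without day 1 replicate 1; lower: 0 without day 3 replicate 1, 2, 3 or 4 or day 1 replicate 1 or 2), and MCM7, a subunit of the replicative helicase, rose by 0.27. Splicing factors were lower in 7 of 48 cases and higher in 4 (higher: 2 without day 3 replicate 1, 3 or 4 or day 1 replicate 1, 2 or 3). SRSF1 had 20.2, 16.1, 22 and 23.7 CPM in the day 3 libraries, against 32.8, 30.5 and 32.2 CPM in the day 1 libraries, and SRSF5, of the same family, rose by 0.35.

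Long noncoding RNA genes took 0.837% ± 0.0241 of counts on day 3 and 0.906% ± 0.0509 on day 1 (SD, n = 4 and 3; exact permutation p = 0.0286, the smallest possible; adjusted p = 0.0381). LINC03009 had 16.8, 16.8, 17.7 and 16.4 CPM in the day 3 libraries, against 9.49, 7.27 and 7.75 CPM in the day 1 libraries. PURPL, a transcript induced by p53, had 4.18, 3.15, 4.82 and 3.35 CPM in the day 3 libraries, against 11.2, 13.1 and 11.6 CPM in the day 1 libraries. LINC00996 had 3.56, 3.68, 4.18 and 4.12 CPM in the day 3 libraries, against 9.46, 10.9 and 8.49 CPM in the day 1 libraries. The log2 changes were 1.05, -1.62 and -1.31, with no overlap between days in any of the 3. The share of the 100 highest genes was 28.9% ± 0.391 on day 3 and 27.7% ± 0.947 on day 1, which was not called (exact permutation p = 0.0857).

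Markers of the labelled cell type and of others were checked beside these groups. The 10 smooth muscle markers summed to 447 to 513 CPM over the day 3 libraries and 338 to 515 CPM over the day 1 libraries. ACTA2 and ACTG2 were higher and MYOCD lower, 6 were not called, and DES, which encodes desmin, was too low to be tested. The 8 fibroblast markers summed to 11002 to 12399.5 CPM on day 3 and 10635 to 12702 CPM on day 1, with LUM and PDGFRA higher and DCN and THY1 lower. ACTG2 was not called without day 3 replicate 2 or 4 or day 1 replicate 1 or 3 (adjusted p = 0.054 to 0.0828), and PDGFRA was not called without day 3 replicate 3 or 4 or day 1 replicate 1 or 2 (adjusted p = 0.0666 to 0.145). The 6 pericyte markers summed to 1287 to 1393 CPM on day 3 and 1001 to 1217 CPM on day 1, with PDGFRB higher and RGS5 lower.

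The 8 endothelial markers summed to 42.2 to 46.1 CPM on day 3 and 41.3 to 43.6 CPM on day 1, mostly from PECAM1, which was not called, and CDH5, CLDN5 and ERG were too low to be tested. The 8 epithelial markers summed to 66.2 to 71.3 CPM on day 3 and 47.2 to 56.1 CPM on day 1. KRT8, KRT18, KRT19 and ELF3 were higher, and EPCAM and CDH1 were too low to be tested. KRT18 was not called without day 3 replicate 1, 2 or 4 or day 1 replicate 1 or 2 (adjusted p = 0.0555 to 0.155), KRT19 without day 3 replicate 1, 2 or 4 or day 1 replicate 1, 2 or 3 (adjusted p = 0.0508 to 0.0849), and ELF3 without day 1 replicate 2 (adjusted p = 0.0543). The 8 leukocyte markers summed to 11.2 to 14.4 CPM on day 3 and 15.1 to 18.1 CPM on day 1, mostly from CD14 and CSF1R. Neither of these was called, and the other 6 markers, PTPRC among them, were too low to be tested. CDH5, CLDN5, ERG, EPCAM, CDH1 and PTPRC were at 0 to 0.159 CPM in every library of both days. The part of the fibroblast and pericyte markers in the matrix and receptor results was not tested.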

How the data were processed

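RNA was extracted with a Zymo miniprep kit and sequenced as poly-A selected, randomly primed libraries, per the labels' protocols. The submitters' processing notes name DRAGEN, STAR 2.7.11b, Salmon 1.10.0, Subread featureCounts 2.0.8 and GRCh38, without their order. The deposited table holds raw read counts per gene, with no normalization by the authors. Its annotation release and strand setting are not given in the sources used here, so overlapping and antisense genes are uncertain. All of its sample columns were mapped by name (0 unused). Rows that name no human gene (99, spike-ins and transgenes) held at most 2 counts per library and were left out.

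Genes with 10 counts in enough libraries and 15 in total (edgeR's filterByExpr) were tested with edgeR 4.0.16 (R 4.3.3), with TMM factors and a robust quasi-likelihood fit of all 11 libraries, contrasting day 3 with day 1. Gene levels and marker sums in CPM are TMM-scaled. Adjusted p-values are Benjamini-Hochberg over 18245 genes, called under 0.05, and two-sided. Shares of counts were compared by two-sided exact permutation. The depth gives a floor of 3 counts, 0.0908 to 0.107 CPM per library before TMM scaling, which covers counting error only. Tested on simulated data of 17890 genes for this comparison, the fit recovered 78.6% of 2-fold and 58.3% of 1.5-fold changes, and 5% of its calls were false. The simulation changed 200 genes, on day 3 only, and drew counts with the spread fitted to these libraries. That is fewer than the 2332 genes called here, so its rates need not hold for these calls. Replicates of a day differed by more than counting noise (chi-square over degrees of freedom 4.07 to 17.4), so none was counted as a duplicate. Transcript lengths came from GENCODE 29, which matched 93.4% of tested genes, and promoters from RefSeq (GRCh38.p14), which matched 11840.

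Named genes were the 12 largest rises and 12 largest falls among called protein-coding genes with a mean of 5 CPM and no overlap, the 6 largest gains and 6 largest losses in CPM, up to 2 per direction of each list, 3 lncRNA genes per direction, and ACTA2, OXTR and GJA1; some were left out. Cell type markers were fixed lists. Members and lists were chosen with earlier results of these data known. Alternatives were DESeq2 1.42.0, RLE factors, library totals, other filters, a fit of days 1 and 3 only, replicate blocks and leaving out each library.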

Additional observations from a re-analysis of the deposited data

Results flagged for a closer look

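In 6 of 131 tested sets of the 4 day 3 libraries, 1 library stood apart by Dixon's test for its gap to the nearest of the others, which by chance flags about 1 in 20 such sets. Day 3 replicate 2 was the library in 4 of them. It was high for CCN1 (382 CPM, others 328 to 329), SSR2 (429 CPM, others 396 to 398) and TWIST2 (65.2 CPM, others 57.8 to 57.9), and low for KLF10 (60.9 CPM, others 68.6 to 69.0). Day 3 replicate 3 was low for CRYAB (1.2 CPM, others 1.34 to 1.36) and high for MYH10 (45.7 CPM, others 43.0 to 43.3). In each case the library still lay on the same side of every day 1 library as the other day 3 libraries.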

How the results depend on the processing

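Of 125 called genes named in the text, 14 lost the call in at least 1 of 15 alternatives. The main count of 2332 called genes was 2516 by DESeq2, 2317 with RLE factors, 2360 with a filter of 1 CPM, and 2470 both without a filter and with library totals. Library totals moved the median log2 change of all genes by -0.06 and gave 840 higher and 1630 lower genes, against 1255 and 1077. A fit of only days 1 and 3 gave 3616 calls (1825 higher, 1791 lower). Its 2310 shared calls covered nearly all of the 2332. With 1 library left out, calls ranged over 1344 to 1759 in all, 697 to 970 higher and 603 to 789 lower.

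The numbers and letters of replicates gave no sign of pairing the libraries. Same-numbered libraries had deviations from their day means correlated at 0.012, -0.002 and -0.023, and same-lettered ones at -0.026, 0.022 and -0.005. With so few libraries, such correlations cannot show whether any shared a culture or batch. A replicate block by number gave 3262 calls, 1611 higher and 1651 lower, and a replicate block by letter gave 2719. With 1 library left out, the difference in share was -0.870 to -0.626 percentage points for mitochondrial transcripts, 0.559 to 0.662 for ribosomal proteins and -0.0854 to -0.0394 for lncRNA genes. Such designs cannot reach an adjusted p under 0.05.

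In the replicate block by letter ACTA2 (adjusted p = 0.238), KRT18 (0.103) and MT-ATP8 (0.175) were not called, nor in the block by number ACTA2 (0.0897), KRT18 (0.09), MMP10 (0.253) and IL36RN (0.139). No other call of a gene named in the text was lost in either block. With library totals KRT18 (adjusted p = 0.126) and PDGFRA (0.0538) were not called, nor without a filter CXCL8 (0.231), KRT18 (0.0856), MGP (0.0661), MMP10 (0.0594) and IL36RN (0.0583), nor with only days 1 and 3 MMP10 (0.0541) and ACTA2 (0.0609). The uncalled OXTR changed sign, with log2 changes of -0.021 with library totals, -0.000832 in the replicate block by number and -0.077 to 0.22 with 1 library left out, and PECAM1 had -0.00235 with library totals. For those changes the cause was not tested. Depth limits the genes under 1 CPM, whose median standard error was 0.36.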

Other observations

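The genes here were chosen after their values were seen. Several receptors and enzymes outside the naming rule changed with small adjusted p-values. BDKRB2, a receptor for bradykinin, had 134, 146, 134 and 125 CPM in the day 3 libraries, against 67.1, 82.7 and 80.1 CPM in the day 1 libraries, and its log2 change was 0.81 (SE 0.08, adjusted p = 7.58e-06). ADCY6, an adenylyl cyclase that makes cAMP, had 123, 129, 130.3 and 120.1 CPM in the day 3 libraries, against 87.3, 86.8 and 88 CPM in the day 1 libraries, and its log2 change was 0.53 (SE 0.05, adjusted p = 7.66e-06). The days did not overlap for either gene.

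SERINC2, a membrane protein named for serine incorporation, had 49.4, 46.1, 46.5 and 50.5 CPM in the day 3 libraries, against 82.6, 90.2 and 76.4 CPM in the day 1 libraries, and its log2 change was -0.79 (SE 0.06, adjusted p = 6.32e-07). SMOX, which oxidises spermine, had 228, 228, 220.2 and 210.9 CPM in the day 3 libraries, against 110.5, 104 and 112 CPM in the day 1 libraries, and RASD1, a Ras-related GTPase induced by glucocorticoid, had 68, 62.3, 53.7 and 59.6 CPM in the day 3 libraries, against 26.8, 25.6 and 28.6 CPM in the day 1 libraries. The log2 changes were 1.03 (SE 0.10, adjusted p = 1.18e-05) and 1.17 (SE 0.09, adjusted p = 1.17e-06).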
